A study of Homo sapiens with 10 samples.

Results

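Replication-dependent histone genes encode the 4 core histones (H2A, H2B, H3 and H4) and the linker histone H1 that package newly made DNA. They were taken here as the rows whose current symbol is H1-1 to H1-5, or starts with H2AC, H2BC, H3C or H4C followed by a number, with at least 0.5 FPKM (fragments per kilobase of gene model, scaled to the library's total) in at least 1 of 10 libraries. Of 20289 genes in the table, 67 had such a symbol and 63 reached the threshold: 5 H1, 14 H2A, 17 H2B, 13 H3 and 14 H4 genes. The members were chosen by symbol and by their highest FPKM in any library, so their being expressed is not a finding. The lowest maxima inside the threshold were 4.31 FPKM for H2BC26, 5.16 for H1-1 and 12.5 for H2AC25. The 4 genes outside it were H2BC1, with a maximum of 0.09 FPKM, and H2AC1, H2BC12L and H4C7, which were listed at 0 in all 10 libraries.

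These genes are transcribed mainly in S phase, when DNA is replicated, with the coactivator NPAT at their promoters. Their mRNAs as a rule carry no poly(A) tail and end instead just after a short stem-loop, which the stem-loop binding protein SLBP holds through processing, translation and decay. When DNA synthesis stops, histone mRNAs are degraded, so their level is widely read as a sign of replication.

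The study treated 2 human pancreatic ductal adenocarcinoma lines with imidazole ketone erastin (IKE), an erastin analog that blocks the cystine importer system xc- and can kill cells by ferroptosis, a death driven by lipid peroxidation. PANC-1 cells received 1 µM IKE for 24 h (4 libraries) or 0.1% DMSO, the solvent (2 libraries). CFPAC-1 cells received 10 µM IKE for 24 h (2 libraries) or 0.1% DMSO (2 libraries). Dead cells and debris were removed first, so the IKE libraries describe survivors, and the IKE dose differed between the lines. Both are established tumour cell lines, cultured without stromal or immune cells. The labels call the libraries biological replicates without saying that they came from separate cultures, so the p-values measure the spread between these libraries.

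RNA was depleted of ribosomal RNA and primed at random, a method that does not select on poly(A). The keratin gene KRT8 averaged 2720, 2880, 2150 and 2580 FPKM in PANC-1 IKE, PANC-1 DMSO, CFPAC-1 IKE and CFPAC-1 DMSO libraries, and the leukocyte gene PTPRC at most 0.015 FPKM. Not all genes listed as markers of other cell types were near 0. CD68 averaged 26.7 to 44.1 FPKM over the 4 groups. With DMSO, COL1A1 averaged 22.2 FPKM in PANC-1, and CD14 and PECAM1 averaged 14.1 and 19.6 FPKM in CFPAC-1. CD3E, VWF, CDH5, COL1A2, DCN and LUM averaged under 1 FPKM in each group. The epithelial genes EPCAM and KRT7 were far lower in PANC-1 (9.5 and 4.97 FPKM with DMSO) than in CFPAC-1 (157 and 296 FPKM). Mitochondrial genes took 3.13% to 5.27% of summed FPKM in PANC-1 IKE libraries and 2.80% to 3.65% in PANC-1 DMSO libraries, and 2.65% to 3.04% in the 4 CFPAC-1 libraries, and the part of this in the results was not tested. The table holds no read counts. The spacing of low FPKM values gave a rough estimate of 16520000 to 23120000 fragments per library, and fragment numbers below come from that estimate.

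Of the 63 genes, 51 lie in clusters on chromosome 6, 11 on chromosome 1 and 1 on chromosome 12. The members are close copies of each other: between H2B genes of equal coding length the median identity of the coding sequence was 89.8%, and it was 83.7% between H4 genes. H3C14 and H3C15 carried the same value in every library and are counted once, as H3C14, which leaves 62 genes. Of the 63, 38 shared no coding stretch of 75 bases with another gene. The pairs H4C11 with H4C12 and H4C14 with H4C15 have identical coding sequences, and H2AC7 and H3C4 are covered by another gene model, so how the authors' counting split such reads is uncertain. The same holds for H2AC17 and H3C12, whose gene models overlap on the same strand. Gene models run from 312 to 5477 bases and 31 of the 63 stop at the stop codon, which affects FPKM, so tests compare libraries and not genes, and any order of genes by FPKM holds for these gene models.

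The stem-loop that ends these mRNAs was found just past the stop codon, 22 to 56 bases away, in 29 of the 32 gene models that go beyond the stop codon. Many of these models do not end there: 12 have 1000 or more bases after the stem-loop, among them H2AC11 with 1761, which also affects FPKM. The stem-loop is shown because this sequence sets histone mRNAs apart from polyadenylated mRNA. The most common form, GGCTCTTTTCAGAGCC, was found in 15 genes. Capitals mark the 16-base stem-loop, read from GENCODE 29 transcripts (GRCh38).
H2AC11 (gene at chr6:27133042-27135291, plus strand, stem-loop 50 bases after the stop codon): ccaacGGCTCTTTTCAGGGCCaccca
H2BC4 (gene at chr6:26114873-26123926, minus strand, stem-loop 36 bases after the stop codon): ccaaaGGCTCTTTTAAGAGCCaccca
H3C10 (gene at chr6:27810064-27811300, plus strand, stem-loop 31 bases after the stop codon): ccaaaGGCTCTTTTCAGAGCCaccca
H4C8 (gene at chr6:26277609-26285638, minus strand, stem-loop 41 bases after the stop codon): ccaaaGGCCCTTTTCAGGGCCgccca
H4C9 (gene at chr6:27138588-27139881, plus strand, stem-loop 33 bases after the stop codon): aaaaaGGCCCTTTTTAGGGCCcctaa
The 5 genes were picked to show different stem-loops, which differ by a few bases. The search took only 16-base stretches that begin with GG and end with CC, and it limited most of the bases between. Their likeness was thus set in part by the search.

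Upstream of the start sites, in the 150 bases before the RefSeq start (GRCh38.p14; 58 of the 63 genes had an entry), the letters TATAAA occurred on either strand in 30 of 58 genes and in 7.05% of all RefSeq promoters. CCAAT, the letters of the CCAAT box, occurred in 49 of 58 genes and in 24.41% of all promoters. It was in all 46 H1, H2A, H2B and H3 windows but in 3 of 12 H4 windows. The octamer ATTTGCAT, the letters of the H2B element bound by the octamer factor POU2F1, occurred in 13 of 17 H2B windows, in 18 of all 58 windows and in 0.99% of all promoters. Its position from the RefSeq start varied among H2B genes. It was -48 in H2BC14, but -120 in H2BC3, -123 in H2BC4, -108 in H2BC6, -111 in H2BC7 and -149 in H2BC17. The window listed for H3C4 is the same as that of H2AC7 (chr6:26199294-26199443), so these counts include it under both genes. It held CCAAT and the octamer, and was the only H3 window with the octamer. Windows of neighbouring H2A and H2B genes on opposite strands can overlap as well, and a site in the overlap is counted under both genes. The octamer counted for H2BC4 is also that of H2AC6, and H2BC7 shares its octamer with H2AC7, and H2BC17 with H2AC17. The motif counts are therefore not counts of separate sites. Windows of 3 genes that were lower with IKE in PANC-1 are shown with these motifs in capitals; a TATAAA match on the opposite strand reads TTTATA and can overlap one on the printed strand, CCAAT reads ATTGG, and the octamer reads ATGCAAAT.
H1-3 (chr6:26234988-26235137, minus strand): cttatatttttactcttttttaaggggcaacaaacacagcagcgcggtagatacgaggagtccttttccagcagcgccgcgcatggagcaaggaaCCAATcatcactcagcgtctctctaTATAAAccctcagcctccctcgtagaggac
H2AC11 (chr6:27132893-27133042, plus strand): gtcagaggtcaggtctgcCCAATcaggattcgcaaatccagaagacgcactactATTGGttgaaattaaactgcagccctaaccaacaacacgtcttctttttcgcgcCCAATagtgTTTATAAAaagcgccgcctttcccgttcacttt
H3C10 (chr6:27809901-27810050, plus strand): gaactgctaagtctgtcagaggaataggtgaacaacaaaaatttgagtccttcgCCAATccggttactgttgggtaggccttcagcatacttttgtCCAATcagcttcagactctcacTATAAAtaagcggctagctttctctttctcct
Each of the 3 windows held TATAAA near its end and at least 1 CCAAT further upstream.

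Summed over the 62 genes, histone mRNA was lower in PANC-1 cells that survived IKE. The sum was 6013, 7443, 6894 and 5753 FPKM in the 4 PANC-1 IKE libraries, against 8730 and 8679 FPKM in the 2 PANC-1 DMSO libraries, a ratio of means of 0.75. In CFPAC-1 the sum was 5634 and 5918 FPKM with IKE, against 6369 and 6207 FPKM with DMSO, a ratio of 0.919. In both lines every IKE sum lay below every DMSO sum. As a share of all summed FPKM, the genes took 1.44% ± 0.139 in PANC-1 IKE (SD, n = 4), 1.98% ± 0.0516 in PANC-1 DMSO (n = 2), 1.39% ± 0.0488 in CFPAC-1 IKE (n = 2) and 1.53% ± 0.053 in CFPAC-1 DMSO (n = 2). In bulk RNA, fewer cells in S phase and less histone mRNA per cell cannot be told apart.

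**Figure D1:**
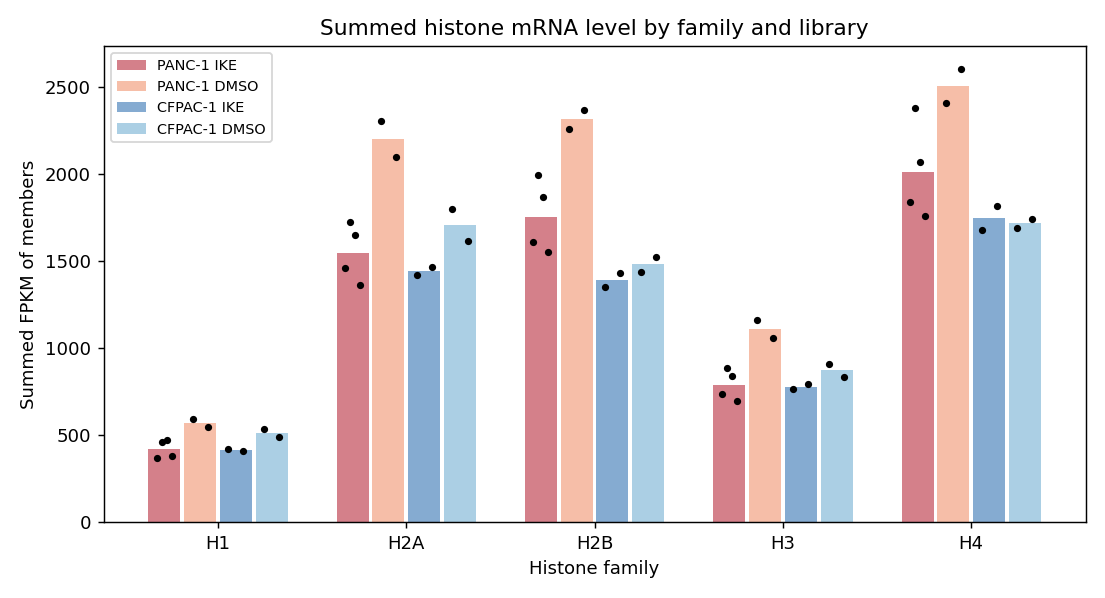
Summed FPKM of the members of each histone family (y axis) in 4 groups; bars are group means and dots are single libraries. PANC-1 IKE sums lie below PANC-1 DMSO sums in all 5 families, and in CFPAC-1 the H4 sums of the 2 treatments overlap.

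In PANC-1, 20 of the 62 genes fell with IKE and none rose (limma on log2(FPKM + 1) over 13077 genes, Benjamini-Hochberg adjusted p under 0.05). Over all tested genes, 1.17% were called lower and 1.21% higher. The members called lower were 1 of 5 H1, 8 of 14 H2A, 5 of 17 H2B, 6 of 12 H3 and 0 of 14 H4 genes. In all, 58 of the 62 had a negative log2 fold change, 44 were lower and 0 higher at an unadjusted p under 0.05 (9.25% and 8.37% of all tested genes), and the median over the 62 was -0.40, against -0.01 over all tested genes. In 43 of the 62 (69.4%) every IKE library lay below every DMSO library, against 13.6% of all tested genes. No gene had every IKE library above every DMSO library, against 12.3% of all tested genes. The number of calls rested on single libraries: it was 0 without PANC-1 DMSO replicate 1, 2 without PANC-1 DMSO replicate 2, 9 without PANC-1 IKE replicate 1 or replicate 4, and 10 without CFPAC-1 IKE replicate 1 or replicate 2. It was 0 in a fit of PANC-1 alone.

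**Figure D2:**
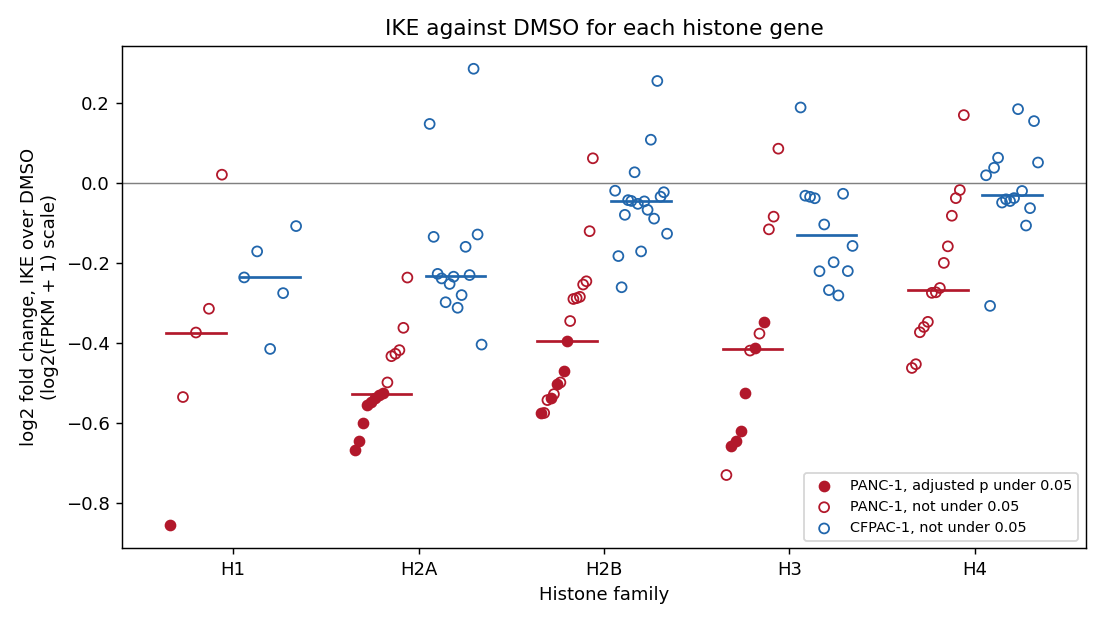
log2 fold change of IKE over DMSO for each of the 62 genes (y axis) by family (x axis), PANC-1 on the left and CFPAC-1 on the right of each family; filled points passed the adjusted p of 0.05 and lines are family medians. The PANC-1 medians lie between -0.53 for H2A and -0.27 for H4, and no CFPAC-1 point is filled.

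Among the linker histones, which bind DNA between nucleosomes, H1-3 changed most. H1-3 (ENSG00000124575, chr6:26234268-26234933) had 47.0, 61.8, 55.1 and 40.7 FPKM in PANC-1 IKE libraries, against 96.4 and 88.3 FPKM in PANC-1 DMSO libraries. The 2 groups were well apart, at a ratio of means of 0.553 (log2 fold change -0.86, SE 0.13, adjusted p = 0.00747). The call was lost without either PANC-1 DMSO library, with adjusted p from 0.00333 to 0.125 over the leave-one-out fits. H1-4 had 60.4, 78.7, 61.7 and 51.4 FPKM in PANC-1 IKE libraries, against 96.2 and 85.7 FPKM in PANC-1 DMSO libraries, with no overlap but an adjusted p of 0.0522. H1-2 had 117, 140, 153 and 125 FPKM with IKE, against 175 and 157 FPKM with DMSO (adjusted p = 0.130). H1-5 had 144, 181, 200 and 163 FPKM with IKE, against 227 and 216 FPKM with DMSO (adjusted p = 0.128). Neither of the last 2 passed, although their IKE libraries also lay below both DMSO libraries. The fifth linker gene, H1-1, was listed at 0 in 5 of the 6 PANC-1 libraries.

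H2A genes, whose products pair with H2B in the nucleosome, made up 8 of the 20 calls. H2AC11 (ENSG00000196787, chr6:27133042-27135291) had 42.8, 47.5, 42.4 and 38.6 FPKM in PANC-1 IKE libraries, against 69.5 and 61.4 FPKM in PANC-1 DMSO libraries. All 4 IKE values lay below both DMSO values, at a log2 fold change of -0.60 (SE 0.09, adjusted p = 0.00747). The call was lost without PANC-1 DMSO replicate 1 (largest leave-one-out adjusted p = 0.137). H2AC20, with the highest mean FPKM of the H2A genes, had 275, 305, 281 and 271 FPKM with IKE, against 452 and 370 FPKM with DMSO (log2 fold change -0.53, SE 0.09, adjusted p = 0.0109). The IKE libraries were close together and the DMSO libraries were not, and the call was lost without PANC-1 DMSO replicate 1. Of the coding windows of H2AC20, 23.7% are shared with another gene. H2AC12 had 154, 171, 150 and 125 FPKM with IKE, against 216 and 215 FPKM with DMSO (log2 fold change -0.53, SE 0.10, adjusted p = 0.0189). Dropping either PANC-1 DMSO library ended that call. H2AC14 had 225, 271, 274 and 196 FPKM with IKE, against 377 and 325 FPKM with DMSO (log2 fold change -0.55, adjusted p = 0.0434), but 82.4% of its coding windows are shared, most with H2AC13, and it kept its call only without PANC-1 IKE replicate 2 or 3 among the 10 leave-one-out fits. The other H2A genes called lower were H2AC4, H2AC8, H2AC15 and H2AC17. Of the coding windows of H2AC17, 85.3% are shared, most with H3C12.

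Among H2B genes, H2BC13 and H2BC18 gave the smallest p-values. H2BC13 (chr6:27807444-27807931) had 108, 138, 113 and 96.8 FPKM in PANC-1 IKE libraries, against 163 and 175 FPKM in PANC-1 DMSO libraries (log2 fold change -0.58, SE 0.11, adjusted p = 0.0212). H2BC18 (chr1:149782689-149812373) had 40.7, 51.0, 51.6 and 44.5 FPKM with IKE, against 64.9 and 65.5 FPKM with DMSO (log2 fold change -0.47, SE 0.09, adjusted p = 0.0200). In both, the IKE libraries lay below the DMSO libraries, and both calls were lost without either PANC-1 DMSO library, for H2BC18 also without PANC-1 IKE replicate 4. H2BC18 shares 56.8% of its coding windows, most with H2BC21. H2BC4, the H2B gene with the highest mean FPKM, had 291, 341, 320 and 280 FPKM with IKE, against 408 and 400 FPKM with DMSO (log2 fold change -0.40, SE 0.08, adjusted p = 0.0272). Its call was lost without 6 of the 10 libraries, which were all PANC-1 libraries but IKE replicates 2 and 3, and both CFPAC-1 IKE libraries. H2BC12 had 217, 256, 239 and 210 FPKM with IKE, against 261 and 301 FPKM with DMSO, and did not pass (adjusted p = 0.184). H2BC6 and H2BC17 also fell.

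**Figure D3:**
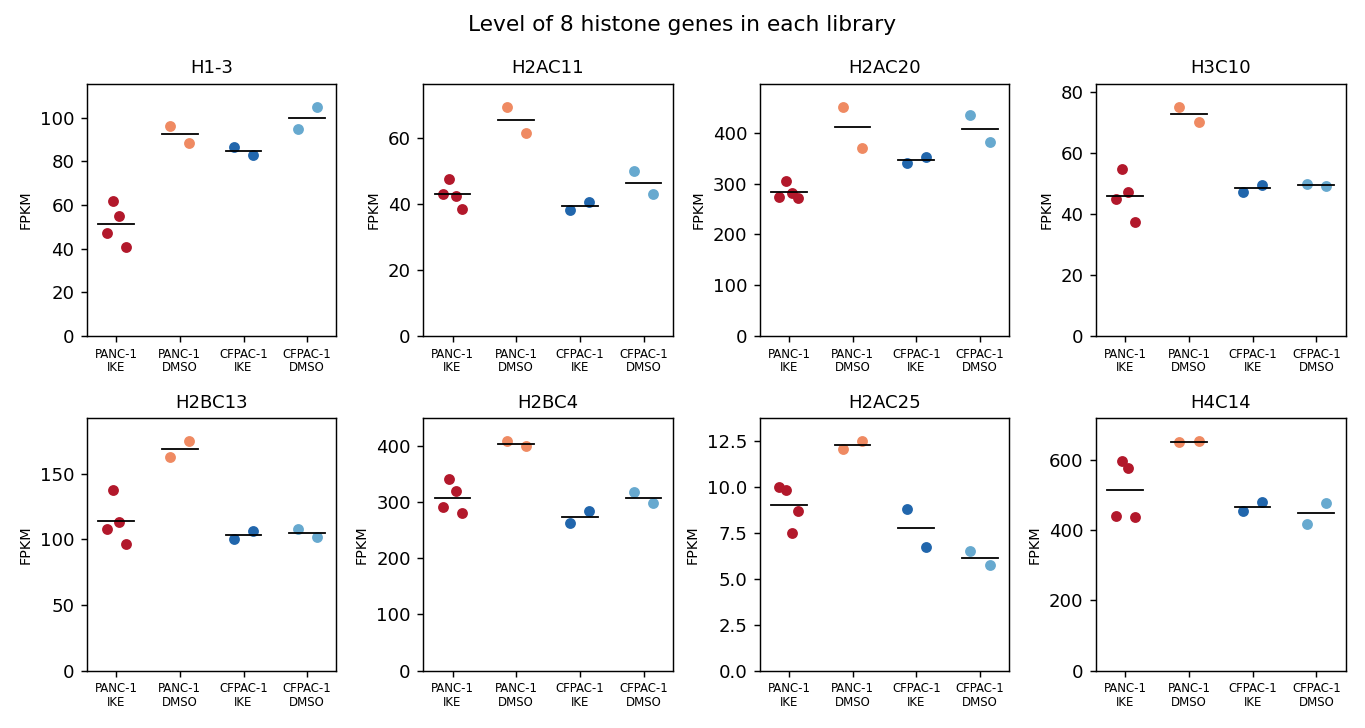
FPKM of 8 histone genes (y axes, from 0) in each library, with dots for libraries and lines for group means. H1-3, H2AC11, H2AC20, H3C10, H2BC13 and H2BC4 passed the test in PANC-1, while H2AC25 and H4C14 did not.

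Of the H3 genes, H3C10 (ENSG00000278828, chr6:27810064-27811300) had 44.9, 54.5, 47.2 and 37.3 FPKM in PANC-1 IKE libraries, against 75.1 and 70.1 FPKM in PANC-1 DMSO libraries. The groups did not overlap (log2 fold change -0.66, SE 0.11, adjusted p = 0.0145), and the call was lost without either PANC-1 DMSO library. H3C4 had 98.0, 120, 105 and 83.3 FPKM with IKE, against 166 and 145 FPKM with DMSO (log2 fold change -0.62, SE 0.12, adjusted p = 0.0200), with all of its coding windows shared with an overlapping gene model. Its call too was lost without either PANC-1 DMSO library. The 2 H3 genes with the highest mean FPKM also fell. H3C3 had 257, 307, 312 and 241 FPKM with IKE, against 428 and 373 FPKM with DMSO (adjusted p = 0.0447). H3C2 had 189, 222, 213 and 204 FPKM with IKE, against 269 and 258 FPKM with DMSO (adjusted p = 0.0307). H3C3 and H3C2 lost their calls without the same 6 libraries as H2BC4. H3C1 and H3C14 were the other H3 genes called lower.

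No H4 gene was called in PANC-1 with limma, and 7 of 14 were lower at an unadjusted p under 0.05. H4C14, with the highest mean FPKM of any H4 gene, had 441, 597, 578 and 438 FPKM in PANC-1 IKE libraries, against 652 and 653 FPKM in PANC-1 DMSO libraries (log2 fold change -0.36, SE 0.13, adjusted p = 0.164). The 4 IKE libraries split into a lower and a higher pair, all below the DMSO libraries. Summed with H4C15, whose coding sequence is identical, the level was 441 to 599 FPKM with IKE, against 654 to 657 FPKM with DMSO. H4C3 had 335, 419, 348 and 336 FPKM with IKE, against 410 and 457 FPKM with DMSO, so the groups overlapped (adjusted p = 0.170). Whether H4 genes responded less than the other families was not tested.

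In CFPAC-1 none of the 62 genes was called in either direction with limma, against 0.459% of all tested genes called lower and 0.864% called higher. At an unadjusted p under 0.05, 7 genes were lower and 0 higher, where 7.1% and 6.5% of all tested genes were. The log2 fold change was negative for 50 genes and positive for 12, with a median of -0.08, against 0.0 over all tested genes. In 26 genes (41.9%) both IKE libraries lay below both DMSO libraries, against 23.9% of all tested genes, and in 4 genes (6.45%) both lay above, against 23.0%. In 21 genes the IKE libraries lay below the DMSO libraries in both lines (33.9%), against 4.85% of all tested genes.

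The smallest p-values in CFPAC-1 came from H2AC21, H3C2, H1-5 and H2AC12. H2AC21 had 61.5 and 68.2 FPKM in CFPAC-1 IKE libraries, against 95.4 and 77.5 FPKM in CFPAC-1 DMSO libraries (log2 fold change -0.40, SE 0.12, adjusted p = 0.139). H1-5 had 111 and 108 FPKM with IKE, against 163 and 132 FPKM with DMSO (log2 fold change -0.42, SE 0.14, adjusted p = 0.195). H3C2 had 100 and 108 FPKM with IKE, against 132 and 121 FPKM with DMSO (log2 fold change -0.28, SE 0.08, adjusted p = 0.149). H2AC12 had 67.8 and 72.5 FPKM with IKE, against 87.1 and 87.5 FPKM with DMSO (adjusted p = 0.236). In these 4 genes the treatments did not overlap, but none passed. The remaining linker genes also had lower means with IKE in CFPAC-1: H1-2 had 155 and 149 FPKM with IKE, against 194 and 174 FPKM with DMSO, H1-3 had 86.4 and 82.9 FPKM against 94.9 and 105 FPKM, and H1-4 had 65.5 and 65.0 FPKM against 75.3 and 71.8 FPKM. H1-1 had 5.16 and 3.76 FPKM with IKE, against 4.92 and 4.75 FPKM with DMSO.

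The response itself was then compared between the lines, as the PANC-1 log2 fold change minus the CFPAC-1 one. These responses were to different IKE doses, 1 µM in PANC-1 and 10 µM in CFPAC-1, so line and dose cannot be told apart. No member was called with limma, against 0.229% of all tested genes called lower and 0.107% called higher, while 19 were lower and 0 higher at an unadjusted p under 0.05 (6.52% and 5.83% of all tested genes). The median difference was -0.28, against -0.01 over all tested genes. Of the 20 genes called lower in PANC-1, 19 also had a negative log2 fold change in CFPAC-1, where the 20 ranged from -0.31 to 0.15. The exception was H2AC15.

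H2AC25, a gene apart from the main clusters on chromosome 1, gave the smallest p for this difference. It had 9.98, 9.81, 7.48 and 8.69 FPKM in PANC-1 IKE libraries, against 12.1 and 12.5 FPKM in PANC-1 DMSO libraries. In CFPAC-1 it had 8.78 and 6.75 FPKM with IKE, against 6.53 and 5.77 FPKM with DMSO. Its values were thus lower with IKE in PANC-1 and higher with IKE in CFPAC-1, a difference of -0.70 (SE 0.19, adjusted p = 0.176). H2AC15 had 11.6, 13.3, 16.2 and 10.8 FPKM in PANC-1 IKE libraries against 18.4 and 23.8 FPKM in PANC-1 DMSO libraries, and 19.4 and 19.7 FPKM in CFPAC-1 IKE libraries against 19.1 and 16.2 FPKM in CFPAC-1 DMSO libraries (difference -0.82, SE 0.22, adjusted p = 0.177). H3C12 had 6.22, 8.31, 10.8 and 7.33 FPKM in PANC-1 IKE libraries against 12.3 and 15.8 FPKM in PANC-1 DMSO libraries, and 8.05 and 7.08 FPKM in CFPAC-1 IKE libraries against 7.26 and 5.81 FPKM in CFPAC-1 DMSO libraries (difference -0.92, SE 0.27, adjusted p = 0.206). Its gene model overlaps that of H2AC17, which averaged 193.0 to 320.6 FPKM over the 4 groups, so the H3C12 values may hold reads from H2AC17. H3C10, described above for PANC-1, had 47.2 and 49.5 FPKM in CFPAC-1 IKE libraries against 49.8 and 49.1 FPKM in CFPAC-1 DMSO libraries (difference -0.63, SE 0.17, adjusted p = 0.177). None of these 4 differences passed the threshold.

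The lines differed from each other in single genes by more than IKE shifted either of them. The log2 differences between PANC-1 and CFPAC-1 with DMSO ranged from -5.98 to 4.36 over the 57 genes that reached 0.5 FPKM in both lines, and those between IKE and DMSO over all 62 genes from -0.86 to 0.17 in PANC-1 and from -0.42 to 0.29 in CFPAC-1. With DMSO, 32 of the 62 genes were higher in PANC-1 than in CFPAC-1 and 12 were lower (limma, adjusted p under 0.05), where 43.4% and 35.2% of all tested genes were. Calls between the lines were common in the whole table, so the counts say little about histone genes as such, and 5 of the 12 lower genes had entered the set through CFPAC-1 alone. The median over all tested genes was 0.116 in this comparison and -0.002 after median-ratio scaling, under which 29 members were higher and 14 lower. By ratio of DMSO means, 3 genes were at least 10 times higher in PANC-1, 6 were at least 10 times higher in CFPAC-1, of which 5 had reached the threshold in CFPAC-1 alone, and 39 were within 2-fold, with limits set after the values were seen.

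Neighbouring genes on chromosome 6 were near 0 in PANC-1 and expressed in CFPAC-1. Along 31390 bases the table lists H4C6, H4C7, H3C7, H2BC9 and H3C8, with H1-3 on one side and H2BC10 on the other. H4C6 (chr6:26240426-26240737) had 0.00 and 0.12 FPKM in PANC-1 DMSO libraries, against 144 and 147 FPKM in CFPAC-1 DMSO libraries. It was listed at 0 in the 4 PANC-1 IKE libraries, and had 128 and 142 FPKM in the CFPAC-1 IKE libraries. H3C7 (chr6:26250195-26250605) had 2.14 and 0.90 FPKM in PANC-1 DMSO libraries, against 150 and 157 FPKM in CFPAC-1 DMSO libraries (log2 fold change -5.98, SE 0.20, adjusted p = 1.88e-10 with limma). H2BC9 (chr6:26251651-26253710) had 0.16 and 0.19 FPKM in PANC-1 DMSO libraries, against 11.99 and 15.17 FPKM in CFPAC-1 DMSO libraries. H3C8 (chr6:26269405-26271815) had 0.42 and 0.29 FPKM in PANC-1 DMSO libraries, against 17.07 and 14.98 FPKM in CFPAC-1 DMSO libraries. H4C7 was listed at 0 in both lines. The flanking genes were expressed in both lines: H1-3 had 96.4 and 88.3 FPKM in PANC-1 DMSO libraries, against 94.9 and 105 FPKM in CFPAC-1 DMSO libraries, and H2BC10 had 62.0 and 52.8 FPKM, against 63.0 and 58.3 FPKM. None of the 4 expressed genes in the stretch shares a coding window with another gene.

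H4C9 and H1-1, elsewhere on chromosome 6, showed the same contrast as single genes. H4C9 (chr6:27138588-27139881) had 0.22 and 0.23 FPKM in PANC-1 DMSO libraries, against 55.1 and 52.5 FPKM in CFPAC-1 DMSO libraries. Its values in PANC-1 rest on 5.9 and 6.0 fragments in the DMSO libraries by the estimate, and in CFPAC-1 on 1200.0 to 1327.5. H1-1 (chr6:26017085-26017732) was listed at 0 in both PANC-1 DMSO libraries and had 4.92 and 4.75 FPKM in CFPAC-1 DMSO libraries. H1-1, H2BC9, H3C8, H4C6 and H4C9 passed the 0.5 FPKM threshold in CFPAC-1 alone, so their difference was fixed in part by how they were chosen and no test is given for them.

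The promoter windows of the genes in that stretch are shown so that they can be read beside those of the genes expressed in both lines.
H4C6 (chr6:26240243-26240392, plus strand): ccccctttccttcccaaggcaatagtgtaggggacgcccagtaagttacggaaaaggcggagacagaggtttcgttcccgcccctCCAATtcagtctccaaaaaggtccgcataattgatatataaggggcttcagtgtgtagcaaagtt
H3C7 (chr6:26250636-26250785, minus strand): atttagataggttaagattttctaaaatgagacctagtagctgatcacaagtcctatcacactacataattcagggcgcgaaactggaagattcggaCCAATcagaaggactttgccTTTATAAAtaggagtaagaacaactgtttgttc
H2BC9 (chr6:26251464-26251613, plus strand): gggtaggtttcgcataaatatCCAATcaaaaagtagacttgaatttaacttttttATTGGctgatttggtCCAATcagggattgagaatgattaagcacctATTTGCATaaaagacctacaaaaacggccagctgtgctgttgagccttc
H3C8 (chr6:26271414-26271563, minus strand): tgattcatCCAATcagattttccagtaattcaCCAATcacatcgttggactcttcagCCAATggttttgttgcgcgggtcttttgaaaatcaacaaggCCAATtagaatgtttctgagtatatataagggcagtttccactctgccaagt
All 4 windows held at least 1 CCAAT, H3C7 also held TATAAA and H2BC9 the octamer. Letters that match a motif do not show that a factor bound there.

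**Figure D4:**
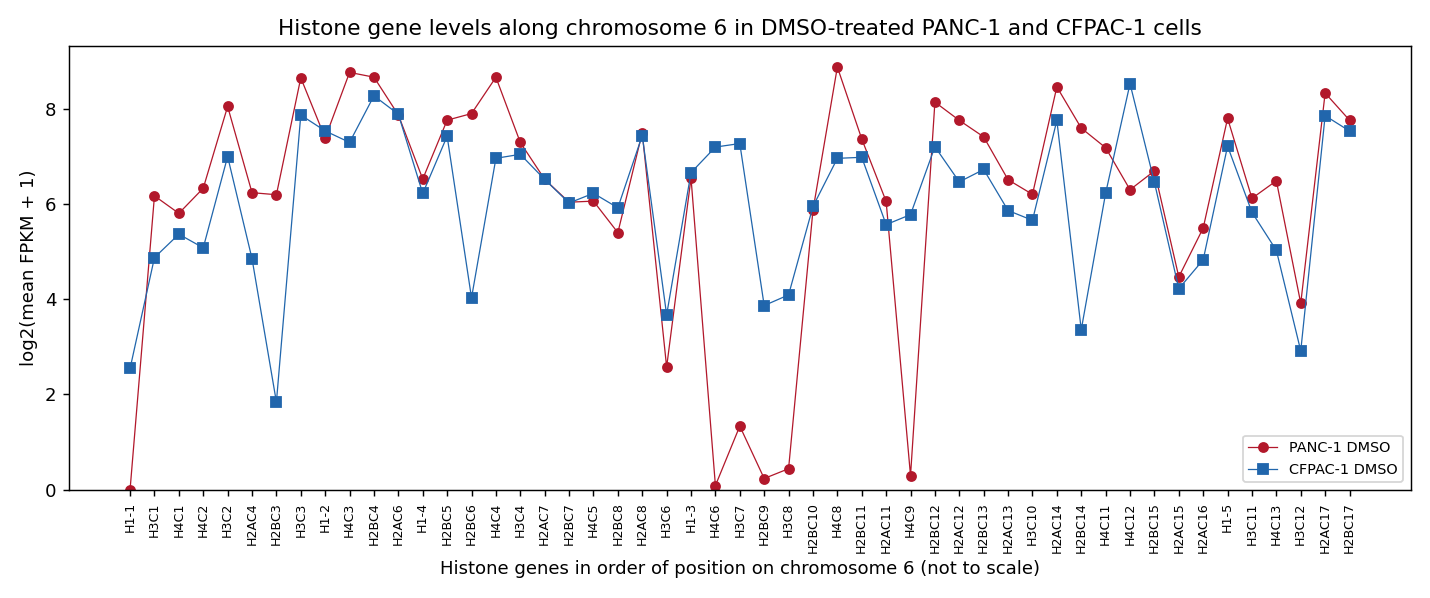
Mean level with DMSO, as log2(mean FPKM + 1), of the histone genes on chromosome 6 in order of position (not to scale), for PANC-1 (circles) and CFPAC-1 (squares). H4C6, H3C7, H2BC9 and H3C8 form a run near 0 in PANC-1, and H2BC3, H2BC6 and H2BC14 stand as separate low points in CFPAC-1.

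Another 3 H2B genes were low in CFPAC-1 and high in PANC-1. H2BC3 (chr6:26043277-26043657) had 69.0 and 75.4 FPKM in PANC-1 DMSO libraries, against 2.73 and 2.42 FPKM in CFPAC-1 DMSO libraries (28.04 times higher, log2 fold change 4.36, SE 0.18, adjusted p = 1.18e-09 with limma). H2BC14 (chr6:27815044-27815424) had 178 and 207 FPKM in PANC-1 DMSO libraries, against 9.99 and 8.51 FPKM in CFPAC-1 DMSO libraries (20.8 times higher, log2 fold change 4.24, SE 0.19, adjusted p = 2.41e-09). H2BC6 (chr6:26172059-26184655) had 248 and 227 FPKM in PANC-1 DMSO libraries, against 15.1 and 15.5 FPKM in CFPAC-1 DMSO libraries (15.5 times higher, log2 fold change 3.87, SE 0.11, adjusted p = 5.19e-11). H3C3, which follows H2BC3 along the chromosome, had 428 and 373 FPKM in PANC-1 DMSO libraries, against 259 and 206 FPKM in CFPAC-1 DMSO libraries. The upstream windows of the 3 genes each held CCAAT and the octamer, with the octamer at -120 in H2BC3, -108 in H2BC6 and -48 in H2BC14.
H2BC3 (chr6:26043714-26043863, minus strand): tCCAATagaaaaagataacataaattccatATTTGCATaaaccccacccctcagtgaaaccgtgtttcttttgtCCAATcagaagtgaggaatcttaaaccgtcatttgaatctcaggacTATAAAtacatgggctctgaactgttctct
H2BC6 (chr6:26183611-26183760, plus strand): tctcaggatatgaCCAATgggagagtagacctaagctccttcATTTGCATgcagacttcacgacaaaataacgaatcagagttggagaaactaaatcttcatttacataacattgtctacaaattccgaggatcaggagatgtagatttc
H2BC14 (chr6:27814872-27815021, plus strand): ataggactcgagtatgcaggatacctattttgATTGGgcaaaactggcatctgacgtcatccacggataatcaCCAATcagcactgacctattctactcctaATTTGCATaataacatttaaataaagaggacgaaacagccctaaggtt
H2BC3 also held TATAAA. H2BC4, at 408 and 400 FPKM in PANC-1 DMSO libraries against 319 and 298 FPKM in CFPAC-1 DMSO libraries, also had CCAAT and the octamer upstream. Its octamer lay at -123, on the site also counted for H2AC6.

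Of the genes with the highest mean FPKM in their family, some differed between the lines and others did not. H4C3 had 410 and 457 FPKM in PANC-1 DMSO libraries, against 144 and 168 FPKM in CFPAC-1 DMSO libraries (log2 fold change 1.47, SE 0.11, adjusted p = 2.02e-07 with limma). H4C14 had 652 and 653 FPKM in PANC-1 DMSO libraries, against 418 and 479 FPKM in CFPAC-1 DMSO libraries. H2AC20 had 452 and 370 FPKM in PANC-1 DMSO libraries, against 435 and 381 FPKM in CFPAC-1 DMSO libraries, and did not pass (adjusted p = 0.959). H4C12, named after its values were seen, had 70.4 and 85.0 FPKM in PANC-1 DMSO libraries, against 405 and 331 FPKM in CFPAC-1 DMSO libraries. Its coding sequence equals that of H4C11, and both genes together came to 203 to 241 FPKM in PANC-1 DMSO libraries, against 409 to 474 FPKM in CFPAC-1 DMSO libraries.

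Genes that act on histone mRNA were set beside the members. SLBP, which binds the stem-loop, had 36.0, 29.3, 34.3 and 35.4 FPKM in PANC-1 IKE libraries, against 32.4 and 33.3 FPKM in PANC-1 DMSO libraries (log2 fold change 0.03, adjusted p = 0.890). In CFPAC-1, SLBP had 21.9 and 19.7 FPKM with IKE, against 23.1 and 21.6 FPKM with DMSO (adjusted p = 0.745). NPAT had 11.4, 9.45, 12.99 and 11.7 FPKM in PANC-1 IKE libraries, against 12.2 and 12.3 FPKM in PANC-1 DMSO libraries (adjusted p = 0.681). In CFPAC-1, NPAT had 8.03 and 8.74 FPKM with IKE, against 8.08 and 7.41 FPKM with DMSO (adjusted p = 0.802). The treatments overlapped for both genes in both lines. Of 26 transcription and processing factors of histone mRNA, none was called with IKE in either line, and the median log2 fold change was -0.01 in PANC-1 and -0.06 in CFPAC-1. Between the lines with DMSO, 13 of the 26 were higher in PANC-1 and 6 lower, where 43.4% and 35.2% of all tested genes were. SLBP (log2 fold change 0.54, adjusted p = 0.000406) and NPAT (0.60, adjusted p = 0.000908) were among the 13, and CCNE2, a cyclin that activates CDK2 at S phase entry, was higher by 1.60 (SE 0.12).

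Histone genes outside the set and chaperones gave no calls with IKE. Of 11 tested replacement and other histone genes, such as H2AZ1 and H3-3B, which are made outside S phase as well, 0 were called in either line, with a median log2 fold change of -0.03 in PANC-1 and -0.10 in CFPAC-1. Of 20 histone chaperones and assembly factors, 0 were called in either line, with medians of -0.09 in PANC-1 and -0.05 in CFPAC-1. The chaperone genes NAP1L1 (1.76, SE 0.08) and NAP1L4 (1.45, SE 0.08) had higher levels in PANC-1 than in CFPAC-1 with DMSO, given as log2 fold changes (limma, adjusted p under 0.05).

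Of 33 DNA replication genes, 2 were called lower with IKE in PANC-1, against 1.17% of all tested genes, and 31 were not called. A negative log2 fold change was found for 32 of them in PANC-1 (median -0.16), against 52.1% of all tested genes. In CFPAC-1, 2 were called lower, against 0.459% of all tested genes, and 26 were negative (median -0.09), against 50.4% of all tested genes. CCNA2, the S phase cyclin A2, was called in both lines: it had 21.4, 21.3, 21.5 and 22.2 FPKM in PANC-1 IKE libraries against 29.2 and 27.6 FPKM in PANC-1 DMSO libraries (log2 fold change -0.38, adjusted p = 0.0148), and 24.4 and 24.6 FPKM in CFPAC-1 IKE libraries against 35.5 and 31.4 FPKM in CFPAC-1 DMSO libraries (log2 fold change -0.43, adjusted p = 0.0174). The others called were TK1, thymidine kinase, in PANC-1 (46.9 FPKM ± 4.58 with IKE, SD, n = 4, and 62.8 FPKM ± 3.33 with DMSO, n = 2) and CLSPN, the checkpoint adaptor claspin, in CFPAC-1 (5.72 FPKM ± 1.27 with IKE and 9.84 FPKM ± 0.679 with DMSO, n = 2 each). With DMSO, 25 of the 33 were higher in PANC-1 than in CFPAC-1 and 3 were lower, where 43.4% and 35.2% of all tested genes were. The median log2 fold change of the 33 in this comparison was 0.74. The medians of the replication genes and of the 62 histone genes were -0.16 and -0.40 with IKE in PANC-1, and -0.09 and -0.08 in CFPAC-1, and how far the one follows the other was not tested.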

How the data were processed

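One deposited FPKM table was used, with 20289 genes and 10 libraries. Per the submitters' processing notes, the authors used fastp 0.18.0, Bowtie2 2.2.8, HISAT2 2.1.0 and StringTie 1.3.4 with GRCh38; DESeq2 is also named there, without a version. Per the labels' protocols, RNA was depleted of rRNA, primed at random and made into strand-marked libraries. The treatment of reads matching several genes was not stated. The table's 9 empty columns were not used.

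Ensembl IDs were matched to current symbols. From the FPKM values, log2(FPKM + 1) was tested with limma 3.58.1 (R 4.3.3, trend, 4 group means, 6 residual degrees of freedom) over 13077 genes, which reached 1 FPKM in 2 or more libraries, and p-values were adjusted by Benjamini-Hochberg with a threshold of 0.05. The procedure was tested on simulated data. The fold changes understate changes of low genes. Per-library values are named for members called, or the 8 with the smallest p where more were called, the 4 with the smallest p in each comparison, the 2 highest of each family and all H1 genes. The members and lists were chosen with earlier results of these data known. The 2 lines and 4 groups come from the sample titles; fragment numbers are estimated from the spacing of low values, of which 52.5% to 61.0% fell within 0.15 of a whole fragment, where 30.0% would by chance, so they are rough. Coordinates are GRCh38 (GENCODE 29; promoters RefSeq, GRCh38.p14). The alternatives tried were other filters, pseudocounts and scalings, a fit per line, parts of the PANC-1 IKE group, a replicate block and each library left out.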

Additional observations from a re-analysis of the deposited data

Results flagged for a closer look

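Among the 61 genes examined in the 4 PANC-1 IKE libraries, 2 had 1 library far from the other 3, where chance flags about 1 in 20 groups. H4C3 had 419 FPKM in PANC-1 IKE replicate 2, and 335, 348 and 336 FPKM in the other IKE libraries. H1-1 had 0.06 FPKM in PANC-1 IKE replicate 2 and was listed at 0 in the other 3, and by the estimate 0.06 FPKM is under 1 fragment.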

How the results depend on the processing

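The count of 20 members called lower with IKE in PANC-1 was 4 with no filter on low values, 0 in a fit per line, 9 with PANC-1 IKE replicates 1 and 2 alone, 21 with replicates 3 and 4 alone, and 27 with a filter of 5 FPKM. Leaving out 1 library gave 0 to 28, with the lowest value without PANC-1 DMSO replicate 1. The number called lower in the difference of the responses was 0 to 1 over the same fits, and 1 without PANC-1 IKE replicate 2. A fit per line gives no comparison between the lines. Counts between the lines with DMSO stayed within 1.5 times. Across genes, the difference between replicates 1 and 2 with IKE did not follow that with DMSO (correlation -0.001 in CFPAC-1 and 0.049 in PANC-1). That cannot show whether libraries with the same number were handled together, and the main fit pairs none. A replicate block within line gave 3 members called lower in PANC-1 and 0 in CFPAC-1, in a fit with 2 residual degrees of freedom. Of the 400 refits of the 20 called genes in PANC-1, 223 kept the call and 177 lost it, and none changed sign. The cause of these changes was not tested. The median log2 fold change of the members kept its sign in all 4 comparisons under every alternative tried. Groups of 2 libraries, no read counts and unknown handling of reads from near-identical copies limit what single genes can show.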
